A study of Mus musculus with 67 samples.

Results

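Chromatin accessibility was compared between day 5 and day 6 in sorted p0-1 progenitors, the cells that stand for the dorsal-most of the ventral neural tube domains in this mouse embryonic stem (ES) cell model. The 11 samples were chosen by their labels alone, as every p0-1 sample of those days, out of 67 samples in the series. At day 5 there were 6 samples, 3 from cultures without the Smoothened agonist SAG and 3 from cultures with 10 nM SAG. At day 6 there were 5 samples, 2 from 0 nM and 3 from 10 nM SAG. All came from HM1, a mouse ES cell line, with no genetic change named between the groups, and all cultures had been moved through a neuromesodermal progenitor (NMP) stage and then given retinoic acid from day 3, with or without SAG. Cells were fixed and transposed, and p0-1 cells were then stained and sorted as SOX2-positive, PAX6-positive and NKX6.1-negative (CaTS-ATAC, ATAC-seq on crosslinked cells sorted by transcription factor staining). The gate pools p0 and p1 cells, and the cells stand for these domains only as far as a dish of 1 ES cell line does.

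In the ventral neural tube, Sonic hedgehog sets up progenitor domains that differ in the transcription factors they express, and p0 and p1 progenitors give rise to the V0 and V1 interneurons of the spinal cord. Besides this spatial programme, neural progenitors of all domains pass through a temporal programme in which early factors give way to others that are used for later neurons and then glia. ATAC-seq counts how often a transposase cuts within a stretch of DNA, and open stretches far from gene starts are often enhancers.

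The values were read counts in 111638 elements (ATAC-seq peaks), divided by a size factor per sample (normalized counts). The depth was 18223634 to 28424039 reads in elements per sample, and it did not separate the days (mean 22687835 at day 5 and 21728119 at day 6, two-sided exact permutation test, p = 0.636, the smallest possible p being 0.00433). An element was tested where its mean over the 11 samples exceeded 100 normalized counts, which held for 31401 elements. An element was called higher or lower at an adjusted p under 0.01 (limma, with SAG concentration as a covariate) together with a ratio of normalized counts above 2-fold.

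1 library stood apart. On the first principal component, which carried 52.3% of the variance and otherwise ordered the samples by day, day 6 0 nM replicate 3 lay at -17.1, among the day 5 samples (-66.8 to -14.6) and away from the other day 6 samples (31.3 to 83.4). Its median correlation with the other day 6 samples was 0.917 and with the day 5 samples 0.923. The day 5 samples of the same replicate number also lay low on this component, at -66.8 (0 nM, the lowest of all samples) and -35.9 (10 nM). On the second component (19.5% of the variance) both day 6 replicate 3 samples were highest, at 46.4 (0 nM) and 48.7 (10 nM). The shift is thus shared in part by its replicate number. The main counts are given with and without day 6 0 nM replicate 3.

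The sequences below are the central 300 bases, plus strand of mm10, of elements that the results turn on. The first set holds the 3 largest rises and a pair of rising elements near signalling genes, Fgf9 and Bmpr1b. Capitals mark 4 short motifs on either strand: AGGTCA, the core site of nuclear receptors such as the retinoic acid receptors; ATGCAAA, recognised by POU factors; TGATNNAT, bound by PBX with HOX proteins; and CACCTG, an E-box.
Slc26a7 element, chr4:14653721-14654020: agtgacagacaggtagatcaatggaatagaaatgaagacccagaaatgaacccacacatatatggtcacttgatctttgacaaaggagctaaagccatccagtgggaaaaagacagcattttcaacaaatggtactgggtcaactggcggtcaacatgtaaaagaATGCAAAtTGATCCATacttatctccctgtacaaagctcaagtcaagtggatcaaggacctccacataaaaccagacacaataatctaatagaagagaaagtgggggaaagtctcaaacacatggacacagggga
Olfr509 element, chr7:108645968-108646267: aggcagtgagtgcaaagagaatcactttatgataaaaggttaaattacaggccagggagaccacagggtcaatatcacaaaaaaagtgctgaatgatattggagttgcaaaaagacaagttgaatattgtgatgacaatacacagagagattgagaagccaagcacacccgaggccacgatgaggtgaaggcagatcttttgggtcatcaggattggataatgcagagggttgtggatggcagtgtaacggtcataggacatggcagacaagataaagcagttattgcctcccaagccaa
1700113H08Rik element, chr10:87237628-87237927: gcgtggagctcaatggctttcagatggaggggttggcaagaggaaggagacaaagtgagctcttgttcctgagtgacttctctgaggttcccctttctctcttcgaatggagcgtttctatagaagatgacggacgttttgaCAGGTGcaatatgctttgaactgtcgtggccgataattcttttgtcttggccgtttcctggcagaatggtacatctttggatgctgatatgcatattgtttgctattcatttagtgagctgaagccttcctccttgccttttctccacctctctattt
Fgf9 element, chr14:58203064-58203363: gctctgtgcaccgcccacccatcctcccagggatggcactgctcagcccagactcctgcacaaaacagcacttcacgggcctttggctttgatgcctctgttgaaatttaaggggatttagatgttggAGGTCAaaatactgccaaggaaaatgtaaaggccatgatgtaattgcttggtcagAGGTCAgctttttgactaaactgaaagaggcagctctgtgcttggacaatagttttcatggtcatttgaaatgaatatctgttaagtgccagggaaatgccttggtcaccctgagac
Bmpr1b element, chr3:141872500-141872799: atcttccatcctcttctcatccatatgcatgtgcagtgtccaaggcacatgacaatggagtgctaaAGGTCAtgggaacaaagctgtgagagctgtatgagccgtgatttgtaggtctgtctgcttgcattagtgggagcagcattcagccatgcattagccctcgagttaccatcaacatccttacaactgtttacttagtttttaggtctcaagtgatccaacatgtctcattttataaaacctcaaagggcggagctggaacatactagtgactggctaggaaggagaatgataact

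The Fgf9 window held 2 AGGTCA matches and the Bmpr1b window 1, whereas the Olfr509 window held none of the 4 motifs. The Slc26a7 window lay in repeat sequence, with 96.7% of its bases soft-masked in the reference. The next set holds the 3 largest falls and a pair of falling elements near Foxa2 and Cdh6.
Chmp4c element, chr3:10378580-10378879: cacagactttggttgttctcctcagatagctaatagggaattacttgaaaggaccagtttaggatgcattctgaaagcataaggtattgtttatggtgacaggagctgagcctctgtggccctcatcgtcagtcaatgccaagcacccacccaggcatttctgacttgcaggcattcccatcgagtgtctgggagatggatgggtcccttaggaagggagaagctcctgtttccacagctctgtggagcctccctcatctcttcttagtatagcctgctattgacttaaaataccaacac
Prag1 element, chr8:36073211-36073510: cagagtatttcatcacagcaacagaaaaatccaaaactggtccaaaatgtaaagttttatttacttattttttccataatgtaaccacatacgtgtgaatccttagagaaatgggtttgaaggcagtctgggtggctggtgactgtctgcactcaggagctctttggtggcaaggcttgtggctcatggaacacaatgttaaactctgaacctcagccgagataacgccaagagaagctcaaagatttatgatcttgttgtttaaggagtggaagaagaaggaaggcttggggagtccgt
Gm8013 element, chr5:96861302-96861601: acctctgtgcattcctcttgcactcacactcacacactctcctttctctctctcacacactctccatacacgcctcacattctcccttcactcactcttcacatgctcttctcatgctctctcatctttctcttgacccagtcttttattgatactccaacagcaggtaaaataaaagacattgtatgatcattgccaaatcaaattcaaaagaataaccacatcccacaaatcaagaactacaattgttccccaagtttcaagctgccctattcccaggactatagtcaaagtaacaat
Foxa2 element, chr2:148004998-148005297: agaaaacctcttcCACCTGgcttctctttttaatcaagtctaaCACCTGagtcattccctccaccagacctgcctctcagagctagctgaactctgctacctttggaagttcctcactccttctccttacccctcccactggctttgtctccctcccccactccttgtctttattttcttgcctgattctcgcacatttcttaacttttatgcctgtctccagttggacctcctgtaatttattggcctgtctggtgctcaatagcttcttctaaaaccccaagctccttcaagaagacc
Cdh6 element, chr15:13276227-13276526: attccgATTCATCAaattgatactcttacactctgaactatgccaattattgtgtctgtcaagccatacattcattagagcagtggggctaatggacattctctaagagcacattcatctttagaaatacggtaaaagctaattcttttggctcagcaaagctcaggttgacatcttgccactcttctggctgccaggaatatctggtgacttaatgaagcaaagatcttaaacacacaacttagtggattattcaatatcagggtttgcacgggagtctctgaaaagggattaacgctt

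The Foxa2 window held 2 CACCTG matches and the Cdh6 window 1 TGATNNAT match. The windows of the 3 largest falls held none of the 4.

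Between day 5 and day 6, 808 elements became more accessible and 605 less accessible, which together were 1413 of the 31401 tested (4.5%, with 2.57% higher and 1.93% lower). Above 4-fold, the size that the study asked for between days, 63 elements rose and 33 fell (0.306% of those tested), and without day 6 0 nM replicate 3 the split turned to 64 and 81. The largest changes were 14.2-fold up and 8.16-fold down. All tested elements together shifted by a median log2 ratio of 0.11 toward day 6, and with folds taken relative to that median the split turned to 618 higher and 808 lower, so that the direction in which more elements moved depended on the scaling. Without day 6 0 nM replicate 3 the counts were 774 higher and 1220 lower, of which 705 and 581 were among the elements called with all samples. The number of falling elements thus moved from 605 to 1220 with that library left out, while most elements called with it were also called without it. Leaving out day 6 10 nM replicate 3 instead also turned the split, to 721 higher and 828 lower, and without both of these libraries it was 737 and 1860. These fits held no term for the replicate number, and the day 5 samples of the same number stayed in them. With all samples and the replicate number as a block (an added term of the fit), 848 elements were higher and 667 lower.

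**Figure D1:**
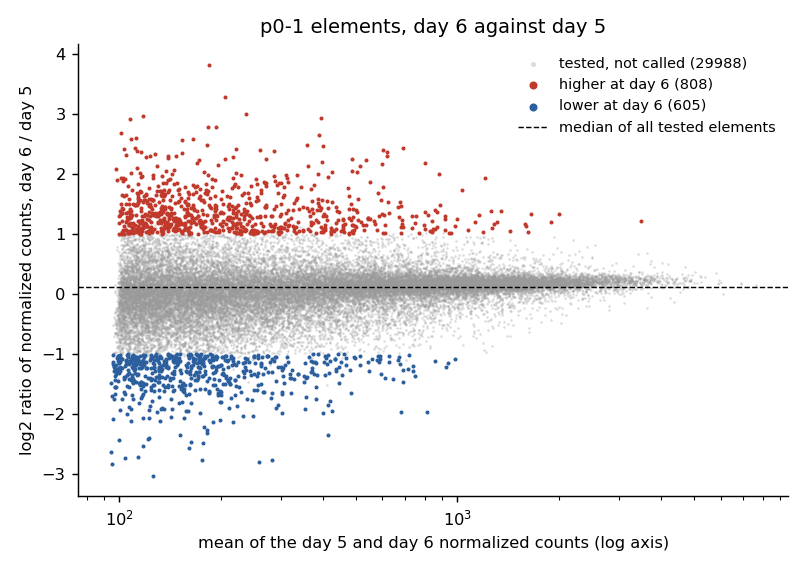
Log2 ratio of normalized counts (day 6 over day 5, vertical axis) against the mean of both days (horizontal log axis) for the 31401 tested elements in p0-1. The 808 red elements rose and the 605 blue ones fell, and the dashed line at 0.11 is the median of all tested elements.

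The largest changes were taken from called elements whose day 5 and day 6 samples did not overlap. Over all tested elements the days did not overlap in 5481 of 31401 (17.5%). Among the elements without overlap, the largest rise lay 32092 bases upstream of Slc26a7, an anion transporter gene (chr4:14653387-14654354, intergenic). The 6 day 5 samples gave 33.8, 24.7, 8.33, 31.3, 33.6 and 13.6 normalized counts, and the 5 day 6 samples gave 398, 68.4, 555, 613 and 191. The lowest day 6 value belonged to the 0 nM library that stood apart. The rise was 14.2-fold (log2 ratio 3.82; fitted difference 3.07 ± 0.46 SE on the variance-stabilised log2 scale, adjusted p = 0.000623).

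An element in the only exon of the olfactory receptor gene Olfr509 (chr7:108645667-108646568) went from 20.6 to 73.3 normalized counts at day 5 to between 169 and 787 at day 6 (9.72-fold, fitted difference 2.89 ± 0.35 SE, adjusted p = 0.000176). Olfactory receptor genes form a large family of similar sequences, so that the assignment of reads to this copy is less certain. An element in an intron of Dlg1, a scaffold protein of cell junctions and synapses (chr16:31732070-31732808), rose 7.81-fold, from 14.2 to 42.5 at day 5 to between 52.5 and 404 at day 6 (adjusted p = 0.00086). As in the Slc26a7 window, repeats covered most of its centre (93.3% of bases soft-masked), and its lowest day 6 value again came from 0 nM replicate 3.

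An intron of Aig1 (chr10:13753159-13754563) showed the tightest of these rises. Its day 5 values were 163, 85.5, 68.3, 94, 68.2 and 69.5 normalized counts, and its day 6 values were 599, 737, 877, 676 and 641. Here the library that stood apart was not the lowest of its day. The rise was 7.66-fold (fitted difference 2.85 ± 0.20 SE, adjusted p = 1.77e-05). The remaining rises of this group lay far from gene starts, 179731 bases from 1700113H08Rik (7.96-fold, adjusted p = 0.000154) and 677802 bases from Fam135b (7.58-fold, adjusted p = 2.89e-05).

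The largest fall was in the first intron of Chmp4c, which encodes an ESCRT-III subunit used in the last step of cell division (chr3:10378485-10378974). Its day 5 values were 140, 190, 199, 199, 345 and 269 normalized counts and its day 6 values 27.1, 33.7, 16.9, 23.3 and 32.9. The fall was 8.16-fold (fitted difference -2.60 ± 0.21 SE, adjusted p = 2.69e-05). The element had stood at a mean of 604 normalized counts at day 4, so it had been falling before day 5.

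The element near Prag1 (chr8:36073101-36073619) fell 7.1-fold, from between 85.3 and 262 at day 5 to between 10.6 and 43.6 at day 6 (adjusted p = 3.5e-05). The element near Gm8013 (chr5:96860641-96862262) fell 6.94-fold, from 256 to 694 at day 5 to 43.1 to 89.7 at day 6 (adjusted p = 4.12e-05). These elements differed in their past: Prag1's had a day 4 mean of 225 normalized counts, close to its day 5 mean of 167, whereas that near Gm8013 had 101 at day 4 and 454 at day 5. The first exon of Cpn1, a carboxypeptidase subunit gene (chr19:43985896-43986925), went from a day 4 mean of 832 to 307 at day 5 and 45.2 at day 6 (6.79-fold between day 5 and day 6, adjusted p = 8.11e-05). The element 556763 bases from Fscb fell 6.66-fold (adjusted p = 1.01e-05), and the element 20005 bases upstream of 2310008N11Rik fell 6.86-fold (adjusted p = 0.000299).

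**Figure D2:**
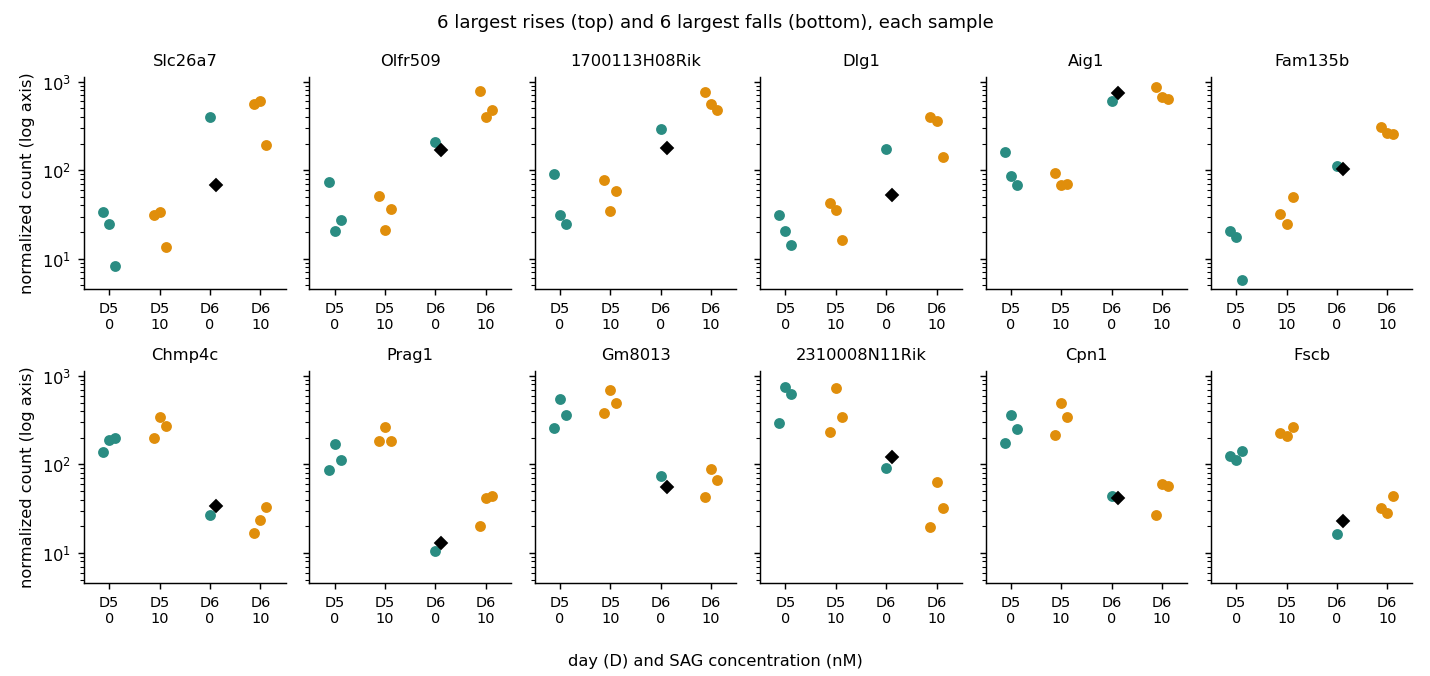
Normalized counts (log axis) of each of the 11 p0-1 samples for the 6 largest rises (top row) and the 6 largest falls (bottom row), by day and SAG concentration, with 0 nM in green and 10 nM in orange. The black diamond is day 6 0 nM replicate 3, which is the lowest day 6 sample for Slc26a7 (68.4) but not for Aig1 (737). The elements were chosen among those whose day 5 and day 6 samples did not overlap.

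The elements that changed were distal. Of those that rose, 54.7% were intergenic and 40.2% intronic, and 7 of 808 overlapped a promoter, whereas promoters made up 21.9% of all tested elements. Of those that fell, 54.2% were intergenic, 39.7% intronic and 13 of 605 at a promoter. The median distance to a gene start was 66684 bases for rising and 53018 bases for falling elements, against 9071 bases for all tested elements. Both groups were also lower in G and C, at a median of 44.9% and 45.8% against 52.4%. Distance to a gene start and base composition go together across elements and were not separated here. Soft-masked repeats covered more than 50% of the central window in 3.09% of the rising, 3.64% of the falling and 2.96% of all tested elements.

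Elements that rose and fell differed in their short sequence motifs, counted on both strands in the central 300 bases of each element. The nuclear receptor site AGGTCA was present in 30.6% of rising and 21.7% of falling elements, against 20.4% of all tested elements more than 1000 bases from a gene start and 16.7% of all tested elements. Its extended form AAGGTCA, every match of which also matches AGGTCA, was present in 13.1%, 6.78%, 6.58% and 5.11% of these groups in the same order. The octamer ATGCAAAT, the site of POU factors, was found in 6.06% of rising and 0.826% of falling elements (2.37% of distal and 1.77% of all tested elements), and its shorter form ATGCAAA in 11.5% and 4.13% (6.34% and 4.80%).

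Falling elements more often held TGATNNAT, the composite site of PBX and HOX proteins, with 31.9% of falling against 18.7% of rising elements (15.7% of distal and 10.9% of all tested elements). The E-box CACCTG was present in 24.0% of falling and 9.16% of rising elements (17.3% and 18.5%), while the E-box CATATG showed the reverse order, with 2.81% and 7.3% (4.61% and 3.30%). Within elements of 40 to 50% G and C the shares were 30.9% and 21.0% for AGGTCA in rising and falling elements, 18.6% and 34.2% for TGATNNAT, and 9.74% and 22.7% for CACCTG, so that the order of the groups was as before. The SOX site ACAATG was similar in both groups (30.4% of rising and 28.4% of falling elements), as was the nuclear factor I site TTGGCA (16.1% and 16.4%). Above 4-fold the shares of TGATNNAT were close, at 28.6% of 63 rising and 30.3% of 33 falling elements. The caudal and posterior HOX site TTTATG had the reverse order, with 22.5% of rising and 15.2% of falling elements. Within 40 to 50% G and C its shares were 23.3% and 15.9%. The PBX-MEIS site TGACAG had the order of TGATNNAT, with 22.2% of rising and 29.9% of falling elements. Sites related to HOX proteins and their cofactors thus did not all go with falling elements. These shares are descriptions. They were not tested, and of the 24 motifs counted, 4 were added after other shares had been seen, namely the PBX-HOX site, the E-boxes CACCTG and CATATG and the extended nuclear receptor site.

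**Figure D3:**
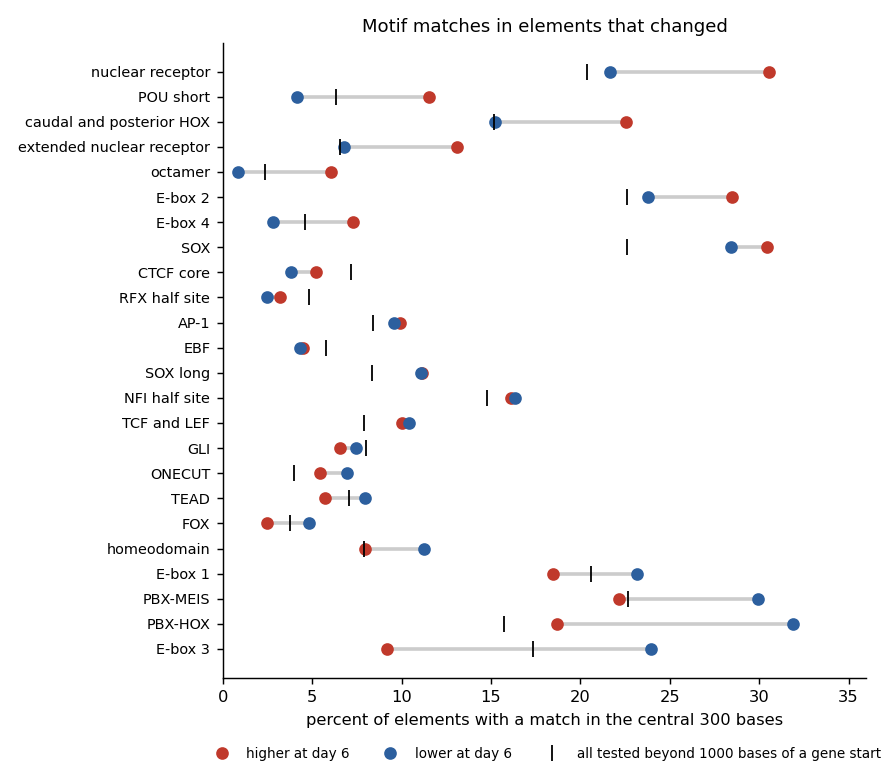
Percent of elements (horizontal axis) with a match to each of 24 motifs (rows) in the central 300 bases, for elements higher (red) and lower (blue) at day 6 and for all tested elements more than 1000 bases from a gene start (black tick). E-box 3 is CACCTG and E-box 4 is CATATG. The red and blue points lie farthest apart for E-box 3 (9.16% and 24.0%) and the PBX-HOX site (18.7% and 31.9%).

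The rising elements had been opening since the NMP stage. Their median level was 9.8 normalized counts in day 3 NMPs, 37.0 and 29.4 in day 4 p0-1 cells from 0 and 10 nM SAG, 94.7 and 110 at day 5, and 223 and 324 at day 6. The falling elements had another history. Their median was 16.9 in NMPs, rose to 236 and 186 at day 4, stood at 215 and 246 at day 5 and came down to 93.8 and 85.8 at day 6. Above 100 normalized counts were 15.5% of them in NMPs, 80.8% and 71.6% at day 4 and 45.3% and 38.5% at day 6. Thus most falling elements had opened between day 3 and day 4 and were closing by day 6. Opening by day 4 was common among tested elements. Of those more than 1000 bases from a gene start, 42.3% were above 100 in NMPs and 72.9% and 66.2% in day 4 p0-1 cells. At day 6 these shares were 90.2% and 89.0%. Of tested elements with 40 to 50% G and C, 26.9% were above 100 in NMPs and 67.3% and 57.1% at day 4. The day 5 and day 6 medians follow from how the elements were called and are given for scale. The NMP and day 4 samples took no part in the calls.

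**Figure D4:**
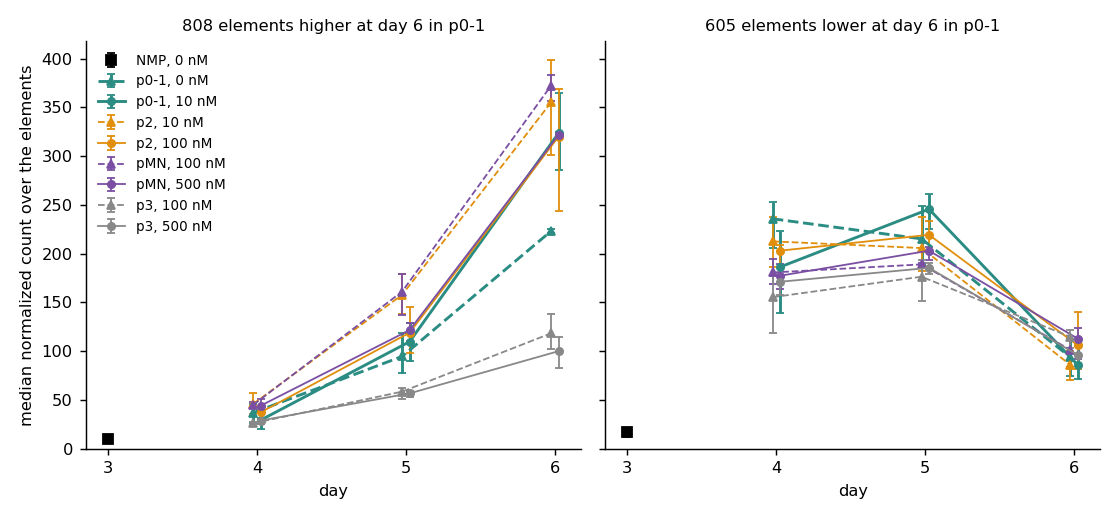
Median normalized count over the 808 elements higher (left) and the 605 elements lower (right) at day 6 in p0-1, by day, cell type and SAG concentration, with bars from the lowest to the highest sample median. In p0-1 (green) the left group climbs from 37.0 and 29.4 at day 4 to 223 and 324 at day 6, and the right group falls from 236 and 186 to 93.8 and 85.8.

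Genes were grouped into 22 lists by role, and each element was assigned to its nearest gene, which need not be the gene it regulates. Beside the counts, 2.57% of all tested elements rose and 1.93% fell. Promoters were 21.9% of all tested elements but 7 of the 808 rising and 13 of the 605 falling ones. The shares among elements outside promoters are therefore higher, and the lists were not matched for distance to a gene start. Since the lists are small, counts without day 6 0 nM replicate 3 are given where they differ. In that fit 774 elements rose and 1220 fell out of 31315 tested, so list counts without the library stand beside a larger share of falls.

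Among late progenitor and gliogenic factors, which come on as progenitors age, 5 of 82 elements rose and none fell, with or without the library that stood apart. Without both day 6 replicate 3 samples 5 rose and 2 fell, against 737 and 1860 over all elements. The median log2 ratio of the list was 0.10, against 0.11 over all tested elements. The 5 that rose with all samples lay near Npas3 (2 elements), Fabp7, Slc1a3 and Nfia. An intronic element of Npas3, a bHLH-PAS transcription factor gene (chr12:53474436-53475401), went from 86.7, 33, 30.8, 107, 51.9 and 51.7 normalized counts at day 5 to 121, 89.2, 322, 214 and 219 at day 6 (2.96-fold, adjusted p = 0.00254). The days overlapped here, through the same day 6 library. Nfia, a driver of gliogenesis, had 1 rising element of 11 tested, and Nfib and Nfix had none of 3 and 5. Among early progenitor and temporal factors, 1 of 47 elements fell and none rose. It lay in an intron of Trim71, a heterochronic gene of early embryos (chr9:114547344-114550491), and went from 352 to 648 at day 5 to between 196 and 347 at day 6 (2.00-fold, adjusted p = 0.00254), just past the size threshold. No element near Lin28a or Lin28b was called, of 3 and 6 tested.

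The neurogenic bHLH and Notch factors, which drive and restrain the birth of neurons, had 7 rising elements and 1 falling of 118 (7 and 2 without day 6 0 nM replicate 3). The rising ones included elements near Neurod4, Id4 and Neurog1. The falling element lay 86191 bases upstream of Rbpj, the Notch effector gene (2.32-fold, adjusted p = 0.00386); its day 5 and day 6 samples overlapped (133 to 279 and 34.7 to 142).

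Genes of neuronal differentiation had 5 rising and 2 falling elements of 90. Gap43, a growth cone gene, had 3 of the rising ones, and Nhlh1 and Dcx 1 each. Its element of largest change (chr16:42351826-42352896) rose from between 56.6 and 205 normalized counts to between 377 and 981 (4.57-fold, adjusted p = 0.000598), and 94.7% of its central window was soft-masked repeat. The largest fall was 349015 bases upstream of Syt1, a synaptic vesicle gene (chr10:109359428-109360553), from between 315 and 468 to between 72.7 and 111 (4.11-fold, adjusted p = 1.16e-05). Without day 6 0 nM replicate 3 the list had 5 rising and 5 falling elements.

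Summed over the 19 elements within 1000 bases of a start in the neuronal list, accessibility was 9272 to 11684 normalized counts at day 5 and 11238 to 15283 at day 6 (ratio 1.25), so that the days overlapped. The same sum over the 6 starts of neural crest markers was 3158 to 3583 and 3617 to 3908 (ratio 1.11), without overlap. For the 12 mesoderm starts it was 4603 to 5777 and 4985 to 6162 (ratio 1.09). The sums over dorsal, more ventral, endoderm and pluripotency starts had ratios of 1.04, 1.07, 0.988 and 0.957. For scale, all tested elements shifted by a median log2 ratio of 0.11, and those more than 1000 bases from a start by 0.03. The elements nearer a start thus lay above 0.11 in the median, but their own median was not computed. The sums and the single starts below therefore have no matched background. Whether they rose more than other gene starts was not tested. These sums were not tested. The element at the start of Tubb3, the neuronal tubulin gene, had 604 to 1107 normalized counts at day 5 and 873 to 1501 at day 6 (1.39-fold, adjusted p = 0.0476), and that of Elavl3, a neuronal RNA-binding protein gene, 455 to 675 and 628 to 1024 (1.39-fold, adjusted p = 0.0203). In the fit blocked by replicate, the adjusted p (limma) was 2.19e-05 for Tubb3 and 5.58e-06 for Elavl3, so that both passed the p threshold there, while the fold stayed below 2. At the starts of the list 2 other elements were called higher. The part of neurons or of cells about to become neurons in the changes reported here was not tested.

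The p0 and p1 identity factors had 5 rising and 3 falling elements of 64 (5 and 5 without day 6 0 nM replicate 3). The 5 elements near Irx3, a homeobox gene of these domains, moved both ways, 2 up and 3 down of 18 tested. The element 195495 bases upstream of Irx3 (chr8:91996418-91997881) gave 223, 122, 92.4, 346, 167 and 184 normalized counts at day 5 and 484, 389, 1635, 1041 and 1322 at day 6 (4.68-fold, adjusted p = 0.000255). At 10 nM SAG all day 6 values were above 1000, and at 0 nM both were below 500, the lower of them from the library that stood apart. No difference of the change between the concentrations was called here (limma interaction, adjusted p = 0.981). An element nearer the gene, 17148 bases upstream (chr8:91818170-91819435), gave 417, 466, 504, 471, 579 and 463 at day 5 and 157, 225, 151, 169 and 251 at day 6 (2.54-fold down, adjusted p = 9.12e-05). At the first exon of Irx3 the days overlapped, with 2305 to 3154 and 2449 to 3584 normalized counts (1.08-fold, adjusted p = 0.503, and 0.00421 in the fit blocked by replicate). Dbx2, Sp8 and Gsx1 had 1 rising element each, and none of the 5 elements near Dbx1 was called. Gsx1 was placed in this list although, like Gsx2, it is a dorsal progenitor factor gene.

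The labelled cell type was checked at the gene starts of the factors used in the sort. The Pax6 promoter had 3190 to 3572 normalized counts at day 5 and 3567 to 4406 at day 6 (1.16-fold, adjusted p = 0.00631), and the Sox2 promoter 1440 to 1747 and 1709 to 1929 (1.15-fold, adjusted p = 0.00834). Both rises were small, below the size threshold. The element at the start of Dbx2 rose 1.44-fold, from 255 to 340 to between 322 and 545 (adjusted p = 0.00287). The promoter of Nkx6-1, whose protein the gate excludes, was nonetheless accessible, at 1114 to 1559 normalized counts at day 5 and 1134 to 1679 at day 6, below its means of 2402 to 2621 in day 6 p2, pMN and p3 cells. The start of Olig2, the pMN factor gene, had 302 to 437 and 315 to 489, against means of 2300 and 2350 in day 6 pMN cells. Neither changed past a threshold between days (adjusted p = 0.563 and 0.636). The annotation placed no element within 1000 bases of the starts of Dbx1, Nkx2-2, Foxa2, Evx1 or En1.

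Factors of V0 and V1 interneurons had 2 rising elements and no falling one of 54 (2 and 1 without day 6 0 nM replicate 3), and 1 of the rising ones lay near Foxp1. The Foxp1 intron element (chr6:99400799-99401999) rose 2.94-fold, from between 63.3 and 93 normalized counts to between 121 and 340 (adjusted p = 0.000443). More ventral identity factors had 3 rising and 2 falling elements of 79 (3 and 3 without that library), and dorsal identity factors 2 rising and none falling of 75 (2 and 1). An element 46332 bases upstream of Olig3, which belongs to both lists, rose 2.78-fold (chr10:19309767-19310647, adjusted p = 0.000405). Both falling elements lay near Foxa2, a floor plate and endoderm factor gene. The larger fall (chr2:148004596-148005698) was from 117, 211, 207, 164, 300 and 232 normalized counts at day 5 to 45.9, 62.5, 5.92, 33.8 and 31.9 at day 6 (5.26-fold, adjusted p = 0.000706). No day 6 sample reached a day 5 sample.

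**Figure D5:**
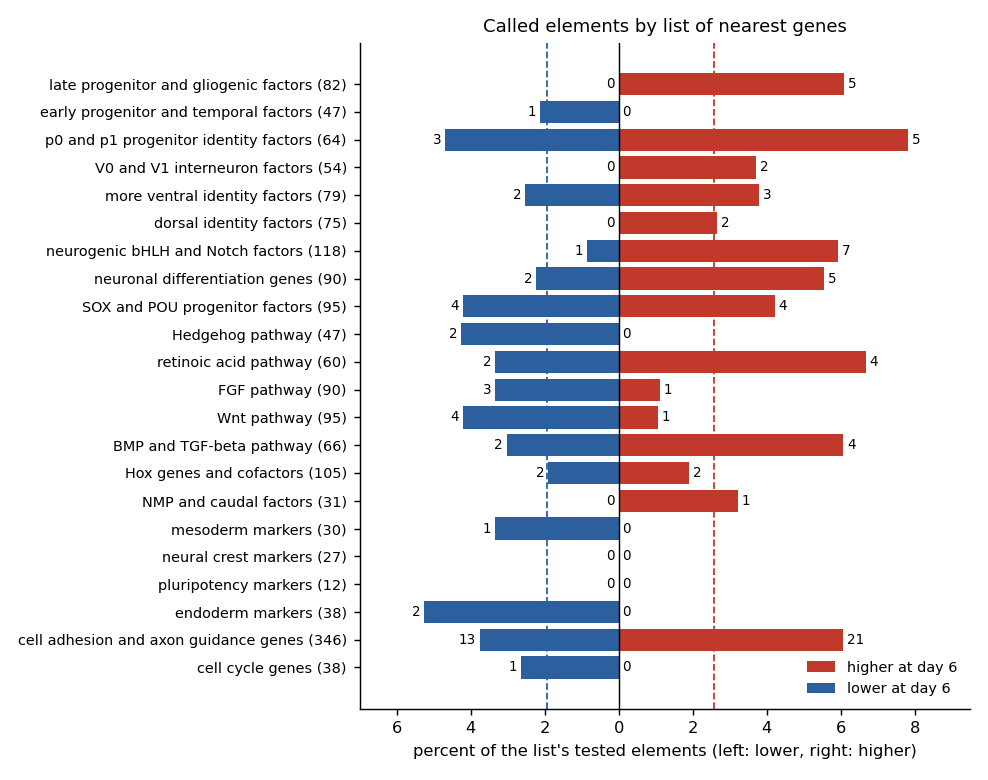
Percent of each list's tested elements (list size in parentheses) that rose (red, right) or fell (blue, left) between day 5 and day 6 in p0-1, with the number of elements at the end of each bar. The dashed lines are the shares over all tested elements, promoters included, 2.57% higher and 1.93% lower.

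SOX and POU progenitor factors had 4 rising and 4 falling elements of 95 (6 and 5 without day 6 0 nM replicate 3). Sox11, which promotes neuronal maturation, had 2 of the rising ones, and the larger, 590099 bases upstream (chr12:27932335-27933299), rose 3.26-fold from between 47.5 and 84.9 to between 88.2 and 291 normalized counts (adjusted p = 0.000615). An element 14322 bases from Sox1, in an intron of Sox1ot (chr8:12409016-12410666), fell 3.2-fold from between 213 and 801 to between 89.6 and 199 (adjusted p = 0.00178), while the Sox1 exon itself did not differ detectably (1.01-fold, adjusted p = 0.96).

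Signalling pathways moved in few elements each. In the retinoic acid pathway, 4 of 60 elements rose and 2 fell (3 and 4 without day 6 0 nM replicate 3). The rising ones included 2 near Cyp26b1, which encodes an enzyme that degrades retinoic acid, and 1 near Dhrs3, a retinaldehyde reductase gene. The largest fall was 12047 bases upstream of Crabp1, a retinoic acid binding protein gene (chr9:54752113-54753290), from between 1151 and 1554 to between 358 and 906 (2.23-fold, adjusted p = 0.000805).

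In the BMP and TGF-beta pathway 4 of 66 elements rose and 2 fell (4 and 5 without that library). An intron of Bmpr1b, a type I BMP receptor gene (chr3:141872266-141873032), gave 138, 78.3, 89.1, 170, 73.2 and 103 normalized counts at day 5 and 537, 457, 879, 714 and 577 at day 6 (5.61-fold, adjusted p = 3.68e-05). The days were far apart in every sample. Acvr2a, an activin receptor gene, had 2 rising elements. An element 218465 bases upstream of Bmper, a secreted BMP modulator gene, fell 3.02-fold (chr9:23003357-23005866, adjusted p = 0.00174).

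In the FGF list 3 of 90 elements fell and 1 rose (3.33% and 1.11%). In the Wnt list 4 of 95 fell and 1 rose (4.21% and 1.05%). Over all tested elements 1.93% fell and 2.57% rose, and the difference of the lists from these shares was not tested. Without day 6 0 nM replicate 3 the lists had 5 and 6 falling elements and 1 rising each, while falls over all elements went from 605 to 1220. The median log2 ratio over the tested elements was 0.07 in the FGF list and 0.17 in the Wnt list. The falling FGF elements lay near Dusp6 (1 of 6 tested), Etv4 (1 of 3) and Spry2 (1 of 7), all known as genes that FGF signalling induces. No element near Etv5, Spry1, Spry4 or Dusp4 was called, of 4, 3, 2 and 4 tested. That near Dusp6 (chr10:99333702-99334865) fell 2.19-fold from between 109 and 207 normalized counts to between 37.7 and 106 (adjusted p = 0.00444). The rising one lay near the ligand gene Fgf9 (chr14:58202890-58203537, 2.10-fold, adjusted p = 0.000461). The falling Wnt elements lay near Axin2 (2 of 8 tested), Tcf7l1 (1 of 6) and Nkd1 (1 of 4), of which Axin2 and Nkd1 encode inhibitors that the pathway itself induces. No element near Lef1, Sp5, Lgr5 or Notum was called, of 5, 2, 2 and 1 tested. The Nkd1 intron element (chr8:88569374-88571463) fell 2.17-fold from between 155 and 246 to between 85 and 99.7 (adjusted p = 0.00017). An intron of Tcf7l2, a transcriptional effector of the pathway (chr19:55876786-55878078), rose 2.47-fold from between 337 and 711 to between 1005 and 1640 (adjusted p = 0.00015). In the Hedgehog pathway 2 of 47 elements fell, both near the co-receptor gene Cdon. The larger (chr9:35493255-35496096) fell 2.44-fold, from between 125 and 234 to between 64.7 and 80.4 (adjusted p = 9.39e-05). No element near the target genes Gli1 and Ptch1 was called, of 1 and 9 tested.

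Of the 105 elements near Hox genes and their cofactors, 2 rose and 2 fell (4 and 1 without day 6 0 nM replicate 3). Both rising elements were nearest to Hoxa4, and the larger lay in an intron of Hoxa3 (chr6:52194437-52195148), with 344, 391, 142, 275, 382 and 200 normalized counts at day 5 and 1605, 783, 1466, 1775 and 1078 at day 6 (4.55-fold, adjusted p = 0.000267). In both days replicate 3 was lowest at its SAG concentration. The falling elements lay near Hoxb1 and in an intron of Meis1, a HOX cofactor gene (chr11:18892594-18893377, 2.13-fold, adjusted p = 0.0016), and the Meis1 call was lost without day 6 0 nM replicate 3 (log2 ratio -0.92).

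Cell adhesion and axon guidance genes, the largest list, had 21 rising and 13 falling elements of 346 (22 and 24 without that library). The largest rise was 822704 bases upstream of Epha5, an ephrin receptor gene (chr5:85239437-85240735), from between 127 and 294 normalized counts to between 713 and 1496 (5.14-fold, adjusted p = 3.6e-05). Epha5 was also the only rise of the NMP and caudal list, in 1 of 31 elements. The largest fall was near Cdh6, a cadherin gene (chr15:13275177-13277576), from between 201 and 354 to between 45.6 and 101 (3.95-fold, adjusted p = 0.000231). Robo1, an axon guidance receptor gene, had 3 rising and 2 falling elements.

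Few elements near markers of other tissues were called. Of 30 elements near mesoderm markers, 1 fell, 2722 bases upstream of Meox1 (chr11:101896571-101897581), from between 864 and 1249 normalized counts to between 210 and 559 (2.77-fold, adjusted p = 0.000174). None of 27 elements near neural crest markers and none of 12 near pluripotency markers was called with all samples; without day 6 0 nM replicate 3, 1 crest element was called higher and 1 pluripotency element lower. The 2 falling elements of 38 in the endoderm list were those near Foxa2 already given (3 without that library). Among cell cycle genes, 1 of 38 elements fell (2 without that library), near the G1 kinase gene Cdk6 (chr5:3324007-3326108), from between 254 and 476 to between 62.4 and 205 (3.12-fold, adjusted p = 0.000241).

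Called elements also gathered in runs. The gene with the most falling elements was 2310008N11Rik, a long non-coding RNA gene, with 8 of 13 tested elements down and none up, spread over 346 kb (chr8:26501437-26847407). No protein-coding gene lies within this run, and the next one is Zfp703, a zinc finger gene that starts 130 kb beyond it. At the element of largest fall (chr8:26843722-26845135) the day 5 samples gave 297, 756, 630, 230, 720 and 339 normalized counts and the day 6 samples 91.8, 121, 19.4, 62.9 and 31.9. This element is also among the 6 largest falls, which were chosen without overlap of the days. The 8 falls had log2 sizes of 1.09 to 2.78. Without day 6 0 nM replicate 3, 6 of the 13 were called lower.

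In all, 12 genes had at least 3 rising and 10 genes at least 3 falling elements. Genes tied at 3 were ordered by their mean change, an order chosen after the values were seen. The rises tied at 3 were led by Lrrtm1, a synaptic adhesion gene (3 of 10 elements, the largest 5.2-fold, chr6:76620587-76621349), 1700113H08Rik, Gm51282 (3 of 4, the largest 3.83-fold, chr1:177561667-177562804) and Gm30223 (3 of 4, the largest 3.46-fold, chr3:16846938-16848150). After 2310008N11Rik the falls were led by Mir1961 (3 of 14, in introns of Shroom3, the largest 2.92-fold, chr5:92767265-92768128), Gm46567 (3 of 12, 2.87-fold, chr16:29850574-29852433), Nrxn3, a presynaptic adhesion gene (3 of 17, with 2 rising, 3.79-fold, chr12:89739586-89740618), and Zfp608 (3 of 29, with 1 rising, 2.69-fold).

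The change from day 5 to day 6 was compared between cultures without SAG and with 10 nM SAG. None of 31401 elements passed an adjusted p of 0.01 for a difference (limma interaction, 1106 at an unadjusted p under 0.05), and none did with voom on the recovered reads. All 1413 called elements moved in their direction at both concentrations. Of the 808 that rose, 564 exceeded 2-fold at 0 nM and 788 at 10 nM, with median log2 ratios of 1.13 and 1.42, and of the 605 that fell, 432 and 572 did, with medians of -1.15 and -1.49. With the 10 nM samples alone 1684 elements passed, and with the 0 nM samples alone, of which 2 were at day 6, none passed (4902 at an unadjusted p under 0.05). A difference between the concentrations was thus not detected, which does not show that they act alike.

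The same elements were then followed in p2 progenitors, the domain next to p0-1 (12 samples, 10 and 100 nM SAG), and in pMN progenitors, which form motor neurons (9 samples, 100 and 500 nM SAG). These are other samples, although p0-1 and p2 cells from 10 nM SAG could come from the same dish. Between day 5 and day 6, 2.81% of tested elements rose and 1.87% fell in p2, and 3.64% rose and 0.984% fell in pMN. Of the 808 elements that rose in p0-1, 731 passed the filter on the mean in p2 and 675 in pMN. Called higher were 489 in p2 and 431 in pMN, and none was called lower in either. The median log2 ratios over the 808 were 1.14 and 1.17. Of the 605 that fell, 491 passed the filter in p2 and 434 in pMN. Called lower were 293 in p2 and 135 in pMN, and none was called higher. The medians over the 605 were -1.16 and -0.87. Over all elements tested in both types the fitted changes correlated with r = 0.906 for p2 (29024 elements) and 0.818 for pMN (28067 elements), a description, since elements are not independent replicates. In p3 cells, the ventral-most type (9 samples), the median ratios were 0.87 and -0.73.

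The changes of the named elements can be set side by side. The Aig1 intron had log2 ratios of 3.24 in p2 and 3.08 in pMN, against 2.94 in p0-1. The Bmpr1b intron had 2.18 and 2.55 against 2.49. Among the falls, the Chmp4c intron had -2.36 and -2.30 against -3.03. The element near Prag1 had -1.52 and -0.96 against -2.83, and that near 2310008N11Rik -1.76 and -1.24 against -2.78. These elements were picked for their large falls in p0-1. No difference was called from p2 or pMN (limma interaction, adjusted p = 0.815 and 0.0327 for Prag1, 0.814 and 0.0878 for 2310008N11Rik). Within p2 and within pMN the 2310008N11Rik element was below the mean needed for testing.

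The difference of the change between cell types was tested directly. Against p2 it was called in none of 31932 elements (limma interaction, 1548 at an unadjusted p under 0.05, and 0 with voom). Against pMN it was called in 39 of 32201 elements (0.121%), with 11 changing more upward and 28 more downward in p0-1 than in pMN. With the replicate number as a block, 843 were called, 168 and 675, and these included all 39. The count rested on single samples: it was 1 without day 5 10 nM replicate 1, 5 without day 6 10 nM replicate 2 and 6 without day 5 10 nM replicate 2. It was 15 without day 6 0 nM replicate 2, 21 without day 5 0 nM replicate 2 or without day 6 10 nM replicate 1, and 25 without day 5 0 nM replicate 3. The count was 27 without day 5 0 nM replicate 1 and 45 without day 5 10 nM replicate 3. Leaving out day 6 replicate 3 of 0 nM or of 10 nM gave 50 each. With samples centred on their medians 24 were called, and the direction turned to 14 more upward and 10 more downward. p0-1 cells came from 0 and 10 nM SAG and pMN cells from 100 and 500 nM, so that cell type and SAG concentration cannot be told apart in this comparison.

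Of the 39, 4 are named here, chosen after their values were seen. An element 355573 bases upstream of Gli3, the main repressor of the Hedgehog pathway (chr13:15107522-15108778), stood at means of 847 and 854 normalized counts in p0-1 (log2 ratio 0.01) and fell in pMN (log2 ratio -1.37; difference 1.34 ± 0.15 SE, adjusted p = 0.00183). An element 73586 bases from Nkx6-1 (chr5:101590073-101592178) had a log2 ratio of -0.34 in p0-1 and 0.98 in pMN (difference -1.29 ± 0.21 SE, adjusted p = 0.00906). An element near the dorsal progenitor factor gene Gsx2 (chr5:75070125-75072387) had -0.13 and 0.62 (difference -0.74 ± 0.12 SE, adjusted p = 0.00733). An element 73843 bases upstream of Kitl, the Kit ligand gene (chr10:99941638-99942318), fell in p0-1 from 680 to 283 normalized counts (log2 ratio -1.26, adjusted p = 0.000109) and had a log2 ratio of -0.05 in pMN (difference -1.19 ± 0.18 SE, adjusted p = 0.00495).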

How the data were processed

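Chromatin accessibility was measured by ATAC-seq on fixed, sorted cells. Per the study's methods, the authors aligned reads to mm10 with the nf-core/atacseq pipeline, called peaks per sample with MACS, merged them into consensus elements, counted reads per element and transformed the counts with DESeq2. The deposited values are variance-stabilised log2 values, made by the authors over all 67 samples. The transform was inverted here to normalized counts and to reads. All values under 1000 reads came back whole, to within 3.58e-11. The inversion restores no depth outside elements. Nearest genes and annotations are those of the deposited element annotation.

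The log2 values were fitted with limma 3.58.1 (R 4.3.3) with day and SAG concentration as terms and a mean-variance trend, and p-values were adjusted by Benjamini-Hochberg over elements with a mean above 100 normalized counts. Calls needed an adjusted p under 0.01 and a fold above 2 (or 4), the fold being the ratio of day means, each the mean of its 0 and 10 nM means. The difference of changes between concentrations or cell types was an interaction term. Scripts were tested on simulated data.

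Named elements were the 6 largest rises and falls without overlap of the days, the largest rise and fall in each gene list, the largest of the 5 genes with most rising or falling elements, and the elements at marker gene starts. The members and lists were chosen with earlier results of these data known. Sequences come from the GRCm38 (mm10) reference. Those near Fgf9, Bmpr1b, Foxa2 and Cdh6 were chosen after their values were seen, for the most motif matches among list elements.

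Replicate numbers were taken from the sample titles, and the descriptions number the day 6 0 nM samples differently. Samples with the same number deviated together from their group means (r from 0.336 to 0.815 over 10 pairs of different days), so the numbers pair the samples. Per the study's methods the replicates are separate differentiations. Results for some genes that the rule names are not reported here.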

Additional observations from a re-analysis of the deposited data

Results flagged for a closer look

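In the intron of Aig1, day 5 0 nM replicate 1 stood above the other day 5 samples, at 162.8 normalized counts against 68.2 to 94.0. Near Rbpj, day 5 0 nM replicate 3 stood above the others of its day, at 278.9 against 133 to 165. These were 2 of 112 groups looked at for a lone high or low sample, and chance flags about 1 in 20.

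The change from day 5 to day 6 differed between p0-1 and pMN in 39 elements (limma interaction), among them those near Gli3, Nkx6-1, Gsx2 and Kitl. SAG concentration differs between these cell types and cannot be told apart from cell type.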

How the results depend on the processing

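The number of elements changed above 2-fold, 1413, was 6500 with no filter on the mean, 2772 with a mean above 50, 2597 without both day 6 replicate 3 samples (737 higher and 1860 lower) and 0 with the 0 nM samples alone, and 1140 to 1994 with 1 sample left out. Above 4-fold, 96 became 630, 215, 230 and 0 under the same alternatives, 200 with the 10 nM samples alone and 67 to 145 with 1 sample left out. Among the filters, more elements were tested by construction, and for the others the cause was not tested. The difference from pMN, 39 elements, was 13 with no filter, 24 with samples centred on their medians (14 more upward and 10 more downward in p0-1), 21 with voom, 843 with the replicate block and 1 to 50 with 1 sample left out. With the replicate block 1515 elements changed above 2-fold and 96 above 4-fold, and the block changed no call of a named element. At an unadjusted p under 0.05 the block moved the difference by SAG concentration from 1106 to 4685 elements and that from p2 from 1548 to 4322. It also brought the adjusted p of the starts of Tubb3, Elavl3 and Irx3 below 0.01, with folds below 2. The differences by SAG concentration and from p2 were 0 under every alternative run. With folds relative to the median of all elements, chosen after seeing the data as was leaving out both replicate 3 samples, 1426 were called. Of the 47 named elements called, none reversed under the 27 alternatives. None was called with the 0 nM samples alone, where 36 lost the call and the other 11 were not tested. Apart from that, the call was lost under 8 alternatives for Dusp6, 7 each for Meis1 and Trim71, 5 for Rbpj, 3 for Fgf9 and 1 each for Bmper, Crabp1 and Mir1961. Without both day 6 replicate 3 samples the element near Fam135b fell below the mean needed for testing.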
